A study of Mus musculus with 6 samples.

Results

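The lymphocyte marker genes *Cd3e*, *Cd3d*, *Cd4*, *Cd8a*, *Cd79a*, *Cd79b*, *Ms4a1*, *Ighm* and *Igkc* were followed in RNA from the aorta of mice with (miRNA-26b+/+, wild type) and without (miRNA-26b-/-, knock-out) this miRNA. They were chosen by name as markers of T and B cells, and all 9 were found among the 55341 genes of the deposited count table. The libraries M2626, M2627 and M2628 came from 3 miRNA-26b-/- mice (labelled KO miRNA26B) and M2629, M2630 and M2631 from 3 miRNA-26b+/+ mice (labelled naive), all labelled C57BL/6NCrl, 8 weeks old and fed normal chow. The knock-out was made in R1/E (129/Sv) embryonic stem cells, and the floxed miRNA-26b region was deleted through CreERT2 and tamoxifen, after which CreERT2 was bred out. The mice were perfused with phosphate buffered saline before the aortic arch and thoracic aorta were taken.

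T cells recognise antigen through a receptor that signals only together with the CD3 chains, encoded by *Cd3e*, *Cd3d* and *Cd3g*, while the co-receptors CD4 and CD8 bind the MHC molecule and separate helper from cytotoxic cells. B cells use a membrane immunoglobulin, made of a heavy chain (*Ighm* for the mu chain) and a light chain (*Igkc* for most mouse light chains), which signals through CD79A and CD79B. The membrane protein CD20, encoded by *Ms4a1*, marks mature B cells. In a healthy arterial wall lymphocytes are known as a minor population, found mainly in the adventitia and the fat around it.

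The libraries held between 25706728 and 33345037 counts assigned to genes, so that a floor of 3 counts lay between 0.0900 and 0.117 CPM (counts scaled to a common library total) in a single library. Several libraries stood apart in the makeup of the tissue. M2627 had the highest summed level of sympathetic neuron genes (556.2 CPM, against 84.7 to 167.4 in the others), and M2626 and M2627 had the lowest sums of endothelial genes (550.4 and 572.6 CPM, against 1341 to 1931 in the others). The labels name aortic endothelial cells, but per gene length the smooth muscle actin gene *Acta2* had 23800 ± 2111 TPM (counts per length, scaled to a common library sum) and the endothelial gene *Pecam1* 244.9 ± 127 (SD, n = 6), so that markers of both cell types were present.

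A miRNA acts on messages that carry a match to its seed, bases 2 to 8. The knock-out lacks both mature products, miR-26b-5p and miR-26b-3p, and matches to miR-26b-3p were not searched. The mature sequence of miR-26b-5p is from RefSeq (GRCm38.p6, chr1:74394324-74394344, forward strand). It is shown because the members were searched for a match to its seed, which is in capitals.
miR-26b-5p: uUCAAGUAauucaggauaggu
The search used the words TACTTGAA, TACTTGA and ACTTGAA on the sense strand of the longest annotated 3′ UTR of each gene; the second and the third lie within the first. None of the 9 members held any of the 3 words, in 3′ UTRs of 209 (*Igkc*) to 2306 (*Cd8a*) bases. Of the 21166 genes with an annotated 3′ UTR, 18.9% held at least 1 of them.

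The T cell members were nearly absent. *Cd3e*, which encodes the epsilon chain (chromosome 9 of GRCm38, 44998740 to 45009627, reverse strand), had 0 counts in every library. Over all 175831482 counts this allows a level of up to 0.0171 CPM, a limit that covers counting error only. *Cd3d*, which encodes the delta chain (chromosome 9, 44981786 to 44987339, forward strand), had 29 counts in M2630 and none in the other 5 libraries. *Cd8a*, the alpha chain of CD8 (chromosome 6, 71373427 to 71379173, forward strand), had 0, 0 and 0 counts in the knock-out libraries and 23, 0 and 56 in the wild type libraries. It was seen only in M2629 and M2631, and as M2630 was also at 0, the groups overlapped. *Cd4* (chromosome 6, 124864692 to 124888221, reverse strand) had 0, 0 and 91 counts in the knock-out libraries and 32, 28 and 0 in the wild type libraries. Its highest library was thus M2628, a knock-out, and the other 2 knock-out libraries were at 0. No library held all of the T cell members: M2629 and M2630 each had 2 of the 4 over 3 counts, M2628 and M2631 had 1, and M2626 and M2627 had none.

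**Figure D1:**
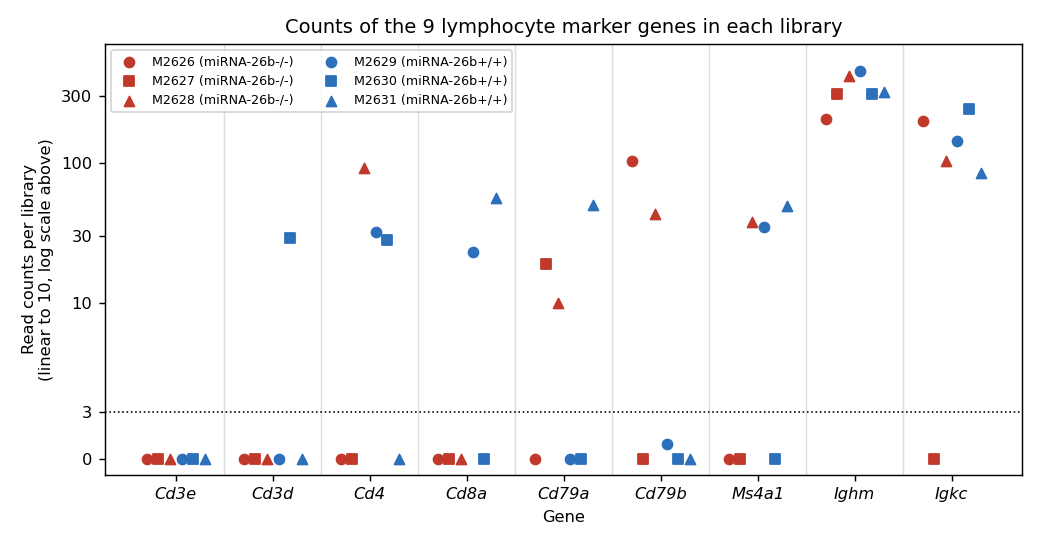
Read counts (vertical axis, linear to 10 and logarithmic above) of the 9 genes in each of the 6 libraries, with knock-out in red and wild type in blue and a dotted line at 3 counts. *Ighm* lies between 204 and 446 counts in all 6 libraries, *Igkc* lies between 85 and 241 in 5 and at 0 in M2627, and each of the other 7 genes is at 0 in at least 3.

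The B cell members divided into the immunoglobulin genes, which were abundant, and the membrane proteins, which were sparse. *Ighm*, the constant region of the mu heavy chain (chromosome 12, 113418558 to 113422730, reverse strand), had 204, 306 and 411 counts in the knock-out libraries and 446, 309 and 319 in the wild type libraries. It was the only member over 3 counts in all 6 libraries, and its groups overlapped. *Igkc*, the constant region of the kappa light chain (chromosome 6, 70726435 to 70726966, forward strand, a single exon), had 198, 0 and 102 counts against 142, 241 and 85. The knock-out library M2627 had no *Igkc* count at all, while the other 5 libraries lay in 1 range shared by both genotypes. The proportion of these genes varied between libraries: the ratio of *Igkc* to *Ighm*, both in TPM, was 0 in M2627, between 0.880 and 1.13 in M2628, M2629 and M2631, 2.76 in M2630 and 3.44 in M2626.

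*Cd79a* (chromosome 7, 24897381 to 24902197, forward strand) had 0, 19 and 10 counts in the knock-out libraries and 0, 0 and 50 in the wild type libraries. *Cd79b*, its partner in the receptor (chromosome 11, 106311341 to 106314762, reverse strand), had 102, 0 and 43 counts against 1, 0 and 0. The partners were over 3 counts together in M2628 alone. *Ms4a1* (chromosome 19, 11249675 to 11266241, reverse strand) had 0, 0 and 38 counts against 35, 0 and 49. M2628 was the only library with all 5 B cell members over 3 counts, and M2630, with 550 counts of *Ighm* and *Igkc* together, had none of *Cd79a*, *Cd79b* or *Ms4a1*. Of the 3369 counts of all 9 members, 82.0% fell on *Ighm* and *Igkc*.

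Counts of 0 beside clearly higher counts were also found among other genes of this abundance. Among the 5583 genes of the table with a mean of 4 to 50 counts per library, 44.9% of the values were 0 and 82.4% of the genes had at least 1 library at 0, and the median ratio of variance to mean was 27.3. The 6 members in that range, *Cd3d*, *Cd4*, *Cd8a*, *Cd79a*, *Cd79b* and *Ms4a1*, had 58.3% of their values at 0 and a median ratio of 34.5. Values of 1 to 3 counts made up only 5.21% among the 5583 genes. A count of 0 in a single library was thus common among genes of this abundance, and floors from counting error alone are too narrow for these genes.

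Per gene length, the order of the levels was *Igkc* (27.7 ± 19.0 TPM, SD, n = 6), *Ighm* (19.6 ± 5.40), *Cd79b* (1.999 ± 3.42), *Cd79a* (0.972 ± 1.47), *Cd4* (0.728 ± 1.04), *Cd8a* (0.398 ± 0.695), *Ms4a1* (0.370 ± 0.414), *Cd3d* (0.313 ± 0.768) and *Cd3e* (0). Between neighbours in this order, the step from *Ighm*, lowest at 12.7 TPM, to *Cd79b*, highest at 8.34 TPM, was the only one at which the libraries did not overlap. *Ighm* stood above 72.9% and *Cd4* above 29.3% of the 24416 genes with a count in any library. On the same scale, the macrophage genes *Lyz2* (lysozyme) and *Csf1r* (the receptor for colony stimulating factor 1) had 534.2 ± 191 and 49.3 ± 19.0 TPM. *Ptprc*, which encodes the pan-leukocyte protein CD45, had 1.37 ± 0.885 TPM. Per gene length this was the lowest level of the 14 pan-leukocyte genes listed, and *Arhgdib* had the highest, 48.6 ± 22.0 TPM. The length used for *Ptprc* was 18313 bases. Without division by length *Ptprc* was not the lowest, with a mean of 7.63 CPM against 2.80 CPM for *Cd48*.

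**Figure D2:**
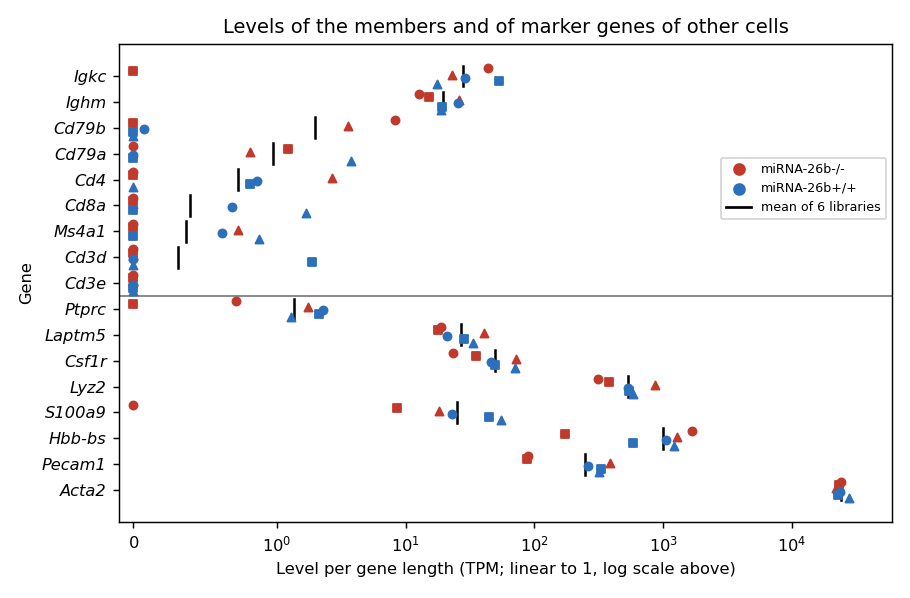
Levels per gene length in TPM (horizontal axis, linear to 1 and logarithmic above) of the 9 members, above the grey line, and of marker genes of other cells below it, with 1 point per library and a black bar at the mean of the 6 libraries. *Igkc* and *Ighm* have means of 27.7 and 19.6 TPM, the other members means of at most 1.999, and *Lyz2* 534.2.

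To ask whether the genotypes differed, the 16017 genes that exceeded 1 CPM in 2 or more libraries were tested at once with edgeR's quasi-likelihood method. Of the members, *Cd4*, *Cd79b*, *Ms4a1*, *Ighm* and *Igkc* passed this filter, while *Cd3e*, *Cd3d*, *Cd8a* and *Cd79a* did not. Of the 5 members, 1 was called at an unadjusted p-value below 0.05, *Cd79b*, against a background of 6.47% of all genes tested. *Cd79b* passed the filter only through the knock-out libraries, in which it was high, so nothing is read from this count. Once p-values were adjusted (Benjamini-Hochberg, over the 16017 genes), 0 of the 5 passed with edgeR, with DESeq2 or with limma voom, against 0.00624% of all genes with edgeR.

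*Ighm*, the best measured member, had 10.6 ± 3.62 CPM in knock-out and 12.1 ± 2.36 CPM in wild type mice (SD, n = 3 each). The log2 fold change of *Ighm* was -0.20 (standard error 0.375, 95% interval from -1.005 to 0.597, edgeR adjusted p = 0.965), a difference within the spread between mice. *Igkc* had 3.79 ± 3.85 and 5.37 ± 3.01 CPM, which gave a log2 fold change of -0.62 (standard error 0.776, 95% interval from -2.27 to 1.04, adjusted p = 0.940). Without M2627, the library without *Igkc* counts, this was 0.07 (edgeR, adjusted p = 0.996), and with limma voom on all 6 libraries it was -3.03 (adjusted p = 0.869). With 3 mice in each group, the data are compatible with changes anywhere within these intervals.

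*Cd4* had 1.09 ± 1.88 CPM in knock-out and 0.688 ± 0.597 CPM in wild type mice, a log2 fold change of 0.62 (standard error 1.48, 95% interval from -2.47 to 3.70, edgeR adjusted p = 0.976). The direction rested on M2628: without it the 2 remaining knock-out libraries were at 0, and with limma voom the log2 fold change was -1.44 (adjusted p = 0.963). *Ms4a1* had 0.454 ± 0.786 against 0.916 ± 0.822 CPM, which gave a log2 fold change of -1.12 (standard error 1.55, 95% interval from -4.35 to 2.11, edgeR adjusted p = 0.946). Without M2628 both knock-out libraries left had no *Ms4a1* count, without M2627 the log2 fold change was -0.43, and with limma voom it was -2.30 (adjusted p = 0.934). Neither the difference of *Cd4* nor that of *Ms4a1* exceeded the spread between libraries.

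*Cd79b* had at most 1 count in each wild type library, so its mean in the knock-out libraries was set against a floor of 3 counts per library. It was 18.1-fold above this floor, which covers counting error only and is thus no firm bound. The 95% interval of the fitted log2 fold change ran from 0.363 to 13.1 (edgeR). The groups nevertheless overlapped, as M2627 had no count. The test gave an unadjusted p = 0.0398 (edgeR, adjusted p = 0.749). As *Cd79b* passed the filter only through the knock-out libraries, this and the following p-values are given as a description. The call was lost without M2629 (unadjusted p = 0.0774), M2630 (unadjusted p = 0.0744) or M2631 (unadjusted p = 0.0801) by edgeR and with limma voom on all 6 libraries (unadjusted p = 0.261), and without M2626 or M2628 *Cd79b* no longer passed the filter. It was kept by DESeq2 (unadjusted p = 0.00218, adjusted p = 0.228). It was also kept by edgeR without M2627, the knock-out library with no count (unadjusted p = 0.00768).

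**Figure D3:**
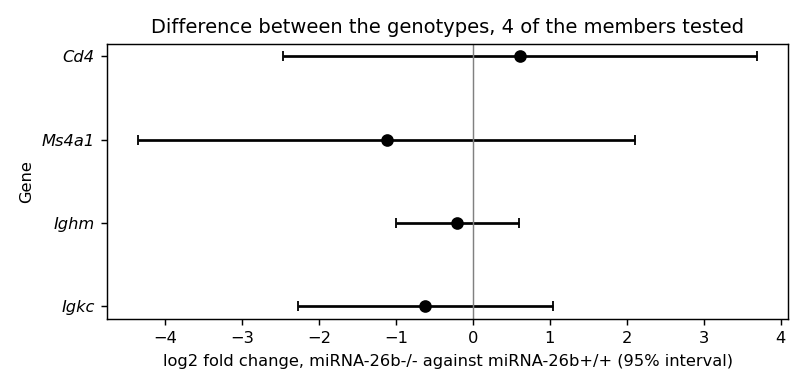
Log2 fold change of knock-out against wild type libraries (horizontal axis) from edgeR for *Cd4*, *Ms4a1*, *Ighm* and *Igkc*, with bars for the 95% interval. Each of the 4 intervals includes 0, and that of *Ighm*, from -1.005 to 0.597, is the narrowest; *Cd79b* is left out because its fold change is only a bound.

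For members below the filter, counts alone describe the groups. Set against the floor in the knock-out libraries, the wild type mean of *Cd8a* was 8.21-fold and that of *Cd3d* 3.32-fold higher. These values rest on 2 libraries and 1 library, and in both cases the groups overlapped. When the filter was dropped, edgeR gave *Cd8a* an unadjusted p of 0.0701, *Cd3d* 0.238 and *Cd79a* 0.672, each with an adjusted p of at least 0.943.

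Summed over the 4 T cell members, the level was 0, 0 and 3.26 CPM in the knock-out libraries and 1.82, 2.05 and 1.82 CPM in the wild type libraries. Summed over the 5 B cell members, it was 19.6, 9.75 and 21.6 CPM against 20.7, 19.8 and 16.3. Both sums were lowest in knock-out libraries and highest in the knock-out library M2628, and the range of the knock-out libraries enclosed that of the wild type libraries. In bulk tissue, fewer cells of a type and less RNA per cell cannot be told apart.

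The macrophage, pan-leukocyte and endothelial sums were lowest in M2626 and M2627 and highest in M2628, as the T cell sum was. The T cell sum rested on few genes, in M2628 on the 91 counts of *Cd4* alone. M2626, where it was 0, held 132 of the 191 counts of T cell receptor constant regions. The B cell sum did not follow the macrophage, pan-leukocyte and endothelial sums in M2626, where it was 19.6 CPM. The 17 genes of macrophages and dendritic cells summed to 386.3, 475.2 and 1144 CPM in the knock-out libraries and to 687.2 to 752.3 CPM in the wild type libraries, so M2626 and M2627, without any T cell member, were also lowest here and M2628 highest. Of these 17 genes all had counts and 13 were over 3 counts in every library. The 14 pan-leukocyte genes were also lowest in M2626 and M2627 and highest in M2628, with 103.7, 82.4 and 212.7 CPM against 109.8 to 128.7. *Ptprc* itself had 112, 0 and 271 counts in the knock-out and 388, 332 and 214 in the wild type libraries. The 7 erythroid genes, which mark blood, were lowest in M2627 (87.5 CPM, against 350.9 to 927.3 in the other 5 libraries), the library without *Igkc*. They did not follow the T cell sum, as they were highest in M2626, where that sum was 0. The part of these cells in the members' levels was not tested.

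**Figure D4:**
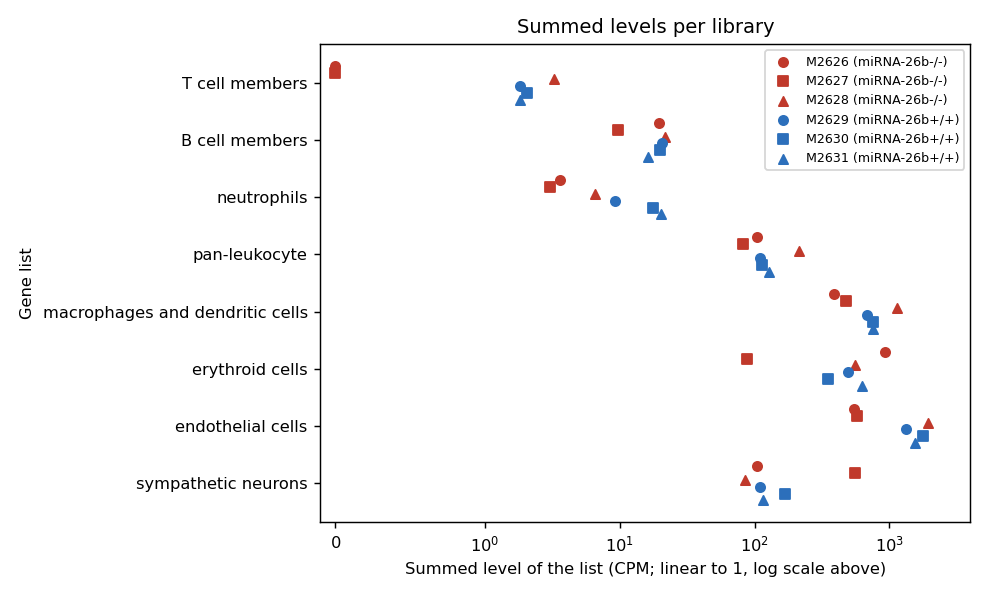
Summed level of each gene list per library in CPM (horizontal axis, linear to 1 and logarithmic above), with knock-out libraries in red and wild type libraries in blue. M2626 and M2627 are at 0 for the T cell members and lowest for the macrophage and endothelial lists, and M2627 is highest for sympathetic neuron genes at 556.2 CPM.

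The wider lymphoid genes were sparse in the same way. Over 5 lists that hold 94 genes besides the members, 18 genes had no count in any library and 18 were over 3 counts in all 6. Of these genes 36 were tested, and 0 were higher and 1 lower in knock-out mice at an unadjusted p-value below 0.05 by edgeR, against 3.4% and 3.07% of all genes tested in the same directions. After adjustment 0 passed with edgeR.

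Among the other genes of the T cell receptor complex and its co-receptors, 4 of 17 were at 0 in all libraries (*Cd7*, *Ctla4*, *Icos* and *Tcrg-C2*) and 4 were tested, of which 0 passed in either direction (median log2 fold change 0.61, against 0.01 over all genes tested). *Cd3g*, the gamma chain that completes the CD3 complex, had 0, 1 and 0 counts in knock-out and 31, 0 and 61 in wild type libraries. The groups overlapped, and the wild type mean was 9.57-fold above the floor of 3 counts. The 95% interval of the fitted log2 fold change, from -12.5 to 0.350, included 0 (edgeR, adjusted p = 0.769). *Cd3g* passed the filter only through the wild type libraries. The constant regions of the receptor held 191 counts in all, 132 of them in M2626, a library without counts of the T cell members. *Trac* of the alpha chain had 9 counts in M2626 and 13 in M2630, and *Trbc2* of the beta chain had 53 in M2626 alone. Of the gamma chain, *Tcrg-C4* had 49 and *Tcrg-C1* 21 counts, both in M2626 alone, and *Trdc* of the delta chain had 45 in M2628 alone. Of this list only *Cd247*, which encodes the zeta chain, and *Cd6*, a surface receptor of T cells, were over 3 counts in every library, with 108 to 450 and 19 to 111 counts. Of the exonic bases of *Cd247*, 60.3% are shared with exons of *Pou2f1* on the opposite strand and *Gm16565*, and as reads were counted without strand and for each gene they overlap, they cannot be told apart.

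In the list of T cell signalling and transcription genes, 21 of 21 had counts and 10 were tested (median log2 fold change -0.15). Of these, 0 were higher and 1 lower at an unadjusted p-value below 0.05, against 3.4% and 3.07% of all genes tested. *Foxp3*, the regulator of regulatory T cells, had 98 to 453 counts per library. Of its exonic bases, 31.5% overlap other genes, among them *Ppp1r3f* and *Ccdc22* on the opposite strand. *S1pr1*, a receptor that endothelial cells also carry, was the most abundant gene of the list, with 447 to 2088 counts.

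Of 25 further genes of B cell identity and receptor signalling, 3 were at 0 in all libraries (*Fcrl1*, *Iglc2* and *Iglc3*), 11 were tested and 0 passed in either direction (median log2 fold change -0.01). The most abundant genes of this list were *Ebf1* (82.6 ± 9.63 against 82.4 ± 9.08 CPM, SD, n = 3 each) and *Cd72* (67.8 ± 13.5 against 60.8 ± 7.61 CPM). *Ebf1*, a transcription factor of B cells, also acts in fat and stromal cells, and 41.6% of the exonic bases of *Cd72* are shared with *Tesk1* on the opposite strand.

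The plasma cell list showed where the immunoglobulin reads lay. Of 14 genes, 5 were at 0 in all libraries (*Ighg1*, *Ighg2c*, *Ighg3*, *Ighe* and *Mzb1*), 5 were tested, and 0 passed in either direction (median log2 fold change 0.20). *Jchain*, which joins immunoglobulin units into polymers, had 79 counts in M2628 and 21 in M2630. *Igha* had 20 counts in M2626 and 46 in M2631, and *Ighg2b* 20 in M2629 and 40 in M2630. The mu constant region, with 1995 counts, thus exceeded every other heavy chain constant region. The list of natural killer and innate lymphoid genes held 18 genes, of which 6 were at 0, 7 were tested and 0 passed in either direction (median log2 fold change -0.18). Its 6 absent genes included *Ncr1* and *Klrb1c*, surface receptors of natural killer cells, and the granzyme gene *Gzma*.

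The variable segments, which a rearranged receptor must use, added few reads. Of 218 annotated immunoglobulin variable genes, 7 had counts, 132 in all, against 3010 counts over the 13 constant genes. Each of the 7 was seen in 1 library only, led by *Igkv8-30* with 55 counts in M2630 and *Igkv14-100* with 38 in M2627, the library without *Igkc*. Of 144 T cell receptor variable genes, 4 had counts, 89 in M2629 and 22 in M2631, led by *Trbv20* with 39. None of these variable genes reached the filter. Variable genes are near copies of each other, and the counting command sets no option for reads that map to several places, so their counts are uncertain.

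As the aortic arch lies next to the thymus and lymph nodes, genes of these organs were read beside the members. Of 15 genes of thymocytes and thymic epithelium, 4 were at 0 in all libraries (*Rag2*, *Foxn1*, *Aire* and *Tbata*) and 5 were tested. Of these, 0 were higher and 1 lower at an unadjusted p-value below 0.05, against 3.4% and 3.07% of all genes tested. The lower gene was *Rag1*, a recombinase of developing lymphocytes, with no counts in the knock-out libraries and 20, 139 and 39 in the wild type libraries. Its wild type mean was 22.0-fold above the floor of 3 counts. The 95% interval of the fitted log2 fold change ran from -16.0 to -2.04 (edgeR, unadjusted p = 0.0153, adjusted p = 0.736). *Rag1* passed the filter only through the wild type libraries, in which it was high, so these p-values are given as a description. Its groups did not overlap, which held for 11.7% of all genes tested, and *Rag2*, its partner in the recombinase, was at 0 throughout. *Satb1*, the most abundant gene of this list, did not overlap either, but was higher in knock-out mice. It had 24.5 ± 5.79 CPM in knock-out and 17.0 ± 0.373 CPM in wild type mice (log2 fold change 0.52, edgeR adjusted p = 0.793). Of the 5 tested thymic genes, 3 were fitted higher and 2 lower in knock-out mice. *Dntt* had 0, 31 and 0 counts in the knock-out and 10, 24 and 0 in the wild type libraries. *Ccl25* had 0, 96 and 165 against 0, 0 and 62, and *Ptcra* had 39 in M2626 alone. Of 9 lymph node genes in the table, *Glycam1*, *Madcam1* and *Fut7*, genes of high endothelial venules, were at 0 in all libraries, 5 were tested and 0 passed. *Chst4*, a sulfotransferase of the same venules, had 10, 137 and 33 counts in the knock-out and 0, 36 and 0 in the wild type libraries, and its groups overlapped. *Ccl21a*, a chemokine of lymphatic vessels and lymph nodes, had 49 to 426 counts and its groups overlapped. *Ccl19* had 41 to 339 and *Cxcl13* 20 to 107 counts, and the groups of both overlapped.

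Neutrophil genes were the leukocyte list whose sums did not overlap, with 3.62, 3.06 and 6.52 CPM in the knock-out and 9.27, 17.5 and 20.2 CPM in the wild type libraries. No gene of this list was over 3 counts in all 6 libraries. How often the sums of a list separate in this way was not tested, so nothing is read from it. Of its 10 genes 4 were tested, and 0 were higher and 1 was lower at an unadjusted p-value below 0.05, against 3.4% and 3.07% of all genes tested. The lower gene was *S100a9*, a calcium-binding protein of neutrophils, with 0, 48 and 80 counts against 111, 198 and 258 (log2 fold change -2.13, standard error 0.764, edgeR adjusted p = 0.736). Among the pan-leukocyte genes, 14 of 14 were tested, and 1 was higher and 0 lower, against the same 3.4% and 3.07% of all genes tested. The higher gene was *Rac2*, a GTPase of blood cells, at 7.99 ± 0.652 CPM in knock-out and 3.09 ± 1.07 CPM in wild type mice (log2 fold change 1.35, standard error 0.520, edgeR adjusted p = 0.736). Its groups did not overlap, which held for 11.7% of all genes tested.

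Over the 6 libraries, the genes whose pattern was most like the mean of the T cell members, by Pearson's r of log2(CPM + 0.5) among 14981 other genes, were *Cp* (0.998), *Cep126* (0.991), *Atp2b1* (0.990), *Vcam1* (0.989) and *Cd24a* (0.986). For *Vcam1*, an adhesion molecule that binds leukocytes, the counts were 761, 1174 and 2729 in the knock-out and 3463, 3685 and 2830 in the wild type libraries, low in M2626 and M2627 as the T cell members were. For the B cell members the nearest genes were *Ncoa5* (0.990), *Prr3* (0.989), *Odf3l1* (0.984), *Acyp1* (0.978) and *Pip4k2c* (0.977). With 6 points, 276 genes exceeded 0.9 for the T cell and 117 for the B cell members, and the members' counts of 0 weigh on these values, which are given as a description.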

How the data were processed

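RNA of 6 aortas was sequenced as 1 library per mouse (TruSeq, HiSeq). After alignment to GRCm38 with STAR, the authors deposited counts of reads per gene name over exons, made by featureCounts v1.6.4 with GENCODE M21, where the methods name another release. Strand was not used, a read over several genes was counted for each, and the command sets no option for reads that map to several places. A second table, with log values and the columns of the authors' own comparison (fold change, FDR, p-value), was not used here.

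From the counts, CPM and TPM (by the table's gene lengths) were computed without further scaling. Genes over 1 CPM in 2 or more libraries (and of 2 or more counts in all) were tested in edgeR 4.0.16 (R 4.3.3) with TMM factors from 0.982 to 1.015, a prior count of 0.125 and Benjamini-Hochberg adjustment. Standard errors and 95% intervals follow from the F statistic and its degrees of freedom. Separate animals are implied by the study, so p-values measure the spread between mice. An exact permutation test of 3 against 3 cannot reach p-values under 0.1 and was not used. The members, the lists and the rule for named genes (every member, per list the genes under an unadjusted p of 0.05 and the most abundant, genes most alike in pattern) were chosen with earlier results of these data known. Other list genes named here, such as *Cd3g*, *Foxp3* and *Jchain*, were picked after their values were seen. Some genes stand in more than 1 list, some act in other aortic cells, and the values of some list genes are not reported here. Alternatives were library size and RLE scaling, DESeq2 1.42.0, limma 3.58.1 voom, edgeR's earlier method, 2 filters and leaving out each library. The fits were tested on simulated counts. Depths ran from 25706728 to 33345037 counts.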

Additional observations from a re-analysis of the deposited data

How the results depend on the processing

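No paired analysis was possible because the labels give no replicate numbers shared by the genotypes. With *Cd79b* as the member called at an unadjusted p-value under 0.05, the count of members was 1 under library size or RLE scaling, without a filter, with DESeq2 and with the earlier edgeR method. It was 0 with filterByExpr, which left *Cd79b* out, and with limma voom, and with each library left out it was 0 to 1. After adjustment it was 0 in every fit run. As *Cd79b* passed the main filter only through the knock-out libraries, nothing is read from the unadjusted count. Over all genes, the number at an unadjusted p-value under 0.05 ran from 686 without M2631 to 1692 without M2628, and the number after adjustment from 0 to 82 with each library left out, and was 57 with DESeq2, 3 with limma voom and 0 with the earlier edgeR method, against 1. With limma voom *Cd4* turned lower (log2 fold change -1.44), and *Igkc* (-3.03) and *Ms4a1* (-2.30) were further below 0. With each library left out, *Cd4* ran from -7.33 without M2628, where the knock-out libraries left are at 0, to 1.31 without M2627. *Igkc* ran from -1.68 without M2626 to 0.0731 without M2627, where it turned higher. *Ighm* stayed lower, from -0.50 to -0.05, in all 14 fits, with an adjusted p-value of 0.731 or more. The causes were not tested. The other 7 members were at 0 in 3 or more libraries, which limits what can be read from them.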
